A study of Mus musculus with 12 samples.

Results

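The transcripts of p53, its regulators and its known targets were followed in B16, an established mouse melanoma cell line. The list holds 33 gene symbols and leaves out the CDK inhibitors and the BCL2 family; all 33 were found among the 23336 symbols of the count table, and 32 passed the filter on low counts that left 11561 genes for testing. The exception was Gdf15, which encodes a secreted stress cytokine. Per the labels and the series' design text, B16 cells were given plasmids for Cas9 and a guide RNA by transient transfection. The guide was Adar sgRNA 1 for Adar-null cells and Non-targeting sgRNA 5 for control cells; subcloning and a check of Adar loss followed. Treatment was interferon-beta (IFNb) at 1000 U/mL or the vehicle, PBS with 0.1% BSA, for 36 h. Each pairing of genotype and treatment was profiled in 3 libraries, 12 in all. The interferon-gamma arm that the design text mentions is not analysed here. Each genotype rests on 1 guide and its subcloned cells, so Adar loss and differences between subcloned populations cannot be told apart. Whether the 3 libraries of a pairing come from 3 cultures or from 1 is not stated in the labels; p-values measure only how these libraries spread, and that spread may be technical.

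As background, p53 is a transcription factor that is held low by the ubiquitin ligase MDM2 and its relative MDM4. When damage or other stress frees p53, it raises genes for cell cycle arrest, DNA repair, cell death and metabolic restraint, and it also raises Mdm2, Ppm1d and Ccng1, whose products return p53 to its resting state. Control of p53 acts largely on the protein, which was not measured here. In mouse and human cells type I interferon is known to raise the transcription of the p53 gene itself, and ADAR edits double-stranded RNA, whose unedited form can set off interferon-dependent growth arrest and death. B16 is widely used as a model of melanoma in mice.

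RefSeq promoter windows (GRCm38.p6, 250 bases before to 50 after a transcript's start) were available for 27 of the 33 genes, in 38 windows. They were searched for exact matches, with no mismatch allowed. The patterns were the p53 half-site (RRRCWWGYYY, with R for A or G, W for A or T and Y for C or T) and 2 half-sites with a spacer of at most 13 bases. The others were the interferon motif GAAANNGAAA on both strands and the STAT motif TTCNNNGAA, which reads the same on both strands. A p53 half-site lay in 10 of the 38 windows, belonging to 9 genes (Aen, Ccng1, Ei24, Gadd45a, Mdm2, Polk, Ppm1d, Sesn1 and Trp53), and in 8.36% of all 32851 windows. Windows of a gene can overlap, and the 2 windows of Aen with a half-site hold the same match. No window of the list held 2 exact half-sites within that spacing, and 0.073% of all windows did. Half-sites with a mismatch were not counted. In the Ccng1 stretch below a near match, agacctgccc, stands directly before the capitals. GAAANNGAAA was found in the window of Plk2 alone and in 3.44% of all windows. TTCNNNGAA was found in 1 window of Polk and in 8.30% of all windows; the half-site overlaps neither interferon motif in these genes. A match is a description of letters, not evidence of a bound site, and the windows do not reach introns or distant elements. Stretches of 70 bases upstream of the start are given for 4 genes of the feedback loop and for Plk2, in the direction of the gene, with the half-site or, for Plk2, the reverse complement of GAAANNGAAA in capitals. They lie at chr11:69580254-69580323 (plus strand), chr10:117710905-117710974 (minus), chr11:40755432-40755501 (minus), chr11:85311092-85311161 (plus) and chr13:110394795-110394864 (plus) of GRCm38.p6. These genes were picked from those higher with IFNb in Adar-null cells, so the display cannot show whether a motif goes with a rise. Of the half-site genes not printed, Aen, Gadd45a and Polk also rose there, Sesn1 fell and Ei24 did not pass.
Trp53: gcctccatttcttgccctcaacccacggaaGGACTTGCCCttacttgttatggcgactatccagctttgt
Mdm2: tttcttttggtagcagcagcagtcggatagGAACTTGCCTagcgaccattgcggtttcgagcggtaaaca
Ccng1: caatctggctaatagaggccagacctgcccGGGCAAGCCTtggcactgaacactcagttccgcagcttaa
Ppm1d: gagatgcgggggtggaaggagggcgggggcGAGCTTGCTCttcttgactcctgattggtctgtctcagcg
Plk2: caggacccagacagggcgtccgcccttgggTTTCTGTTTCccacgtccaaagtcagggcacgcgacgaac

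Levels are given as CPM, counts per 1000000 of the TMM-scaled library size, and differences as log2 fold changes ± standard error. The libraries held 5375649 to 7153480 counts. Of all counts, Rn45s (the precursor of ribosomal RNA) took 21.5% to 22.4% in control and 21.1% to 22.9% in Adar-null libraries with vehicle, and 24.9% to 25.3% and 25.8% to 28.5% with IFNb. Without Rn45s in the libraries, 2 calls of the p53 genes were lost, that of Rrm2b between the genotypes with vehicle (adjusted p = 0.0541) and that of Plk3 in the response of control cells (0.0522), and none was gained. The 7 melanocyte markers (Pmel, Tyr, Tyrp1, Dct, Mlana, Mitf, Sox10) were all detected in every group and summed to 15641 to 16469 CPM in control libraries with vehicle, 13362 to 13660.0 CPM in control libraries with IFNb, 15254 to 15440.0 CPM in Adar-null libraries with vehicle and 10432 to 11147 CPM in Adar-null libraries with IFNb; their part in the results below was not tested. Of 7 leukocyte markers, Cd3e and Ncr1 were among those at 0 in every group and the sum of the list stayed between 1.05 and 3.87 CPM; the summed markers of endothelium reached at most 1.70, of epithelium 4.28 and of fibroblasts 35.1 CPM. The targeted gene, Adar, was at 72.2 ± 2.05 CPM (SD, n = 3) in control and 59.5 ± 5.26 CPM in Adar-null vehicle libraries (-0.28 ± 0.06), and at 384 ± 7.47 and 408 ± 21.2 CPM with IFNb. A small Cas9 deletion need not lower a count over a whole gene, so these counts do not check the deletion. Of the exonic bases of Adar 16.8% overlap the gene Chrnb2 on the other strand. Chrnb2 was at 10.5 ± 0.878 CPM with vehicle and 7.65 ± 0.865 CPM with IFNb in control cells. In Adar-null cells it was at 14.6 ± 1.18 and 31.1 ± 0.781 CPM. Its part in the counts of Adar was not tested. In a bulk library, fewer cells with a transcript and less of it per cell cannot be told apart.

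Without IFNb, most of the p53 genes did not pass the test between the genotypes, and those that did were lower in Adar-null cells. Of the 32 tested genes 7 (21.9%) were lower in Adar-null cells and 0 were higher, against 4.05% and 2.47% of all 11561 genes (edgeR quasi-likelihood test, Benjamini-Hochberg adjusted p under 0.05). The lower genes were Perp, a membrane protein of cell death and adhesion (-1.42 ± 0.30, adjusted p = 0.0002), Pltp, a phospholipid transfer protein (-1.36 ± 0.28, adjusted p = 0.000199), the polo-like kinase gene Plk2 (-0.58 ± 0.17, adjusted p = 0.0212), the adenylate kinase gene Ak1 (-0.51 ± 0.12, adjusted p = 0.0012), the cyclin genes Ccng2 (-0.38 ± 0.10, adjusted p = 0.00556) and Ccng1 (-0.36 ± 0.06, adjusted p = 4.42e-07), and Rrm2b, a ribonucleotide reductase subunit (-0.29 ± 0.10, adjusted p = 0.047). The median log2 fold change of the 32 genes was -0.05, and that of all genes tested 0.00. At an unadjusted p under 0.05, 2 genes were higher and 9 lower; none was called higher with the DESeq2 Wald test or limma-voom. Trp53 itself (0.16 ± 0.07, adjusted p = 0.14) and Mdm2 (0.00 ± 0.07, adjusted p = 0.996) did not pass. The call of Plk2 was lost without control vehicle replicate 2 (adjusted p = 0.13), without Adar-null vehicle replicate 1 (0.181) and with the DESeq2 Wald test (0.0596). That of Ccng2 ended without the vehicle library of replicate 3 of control (0.0624) or Adar-null cells (0.0515) and with DESeq2 (0.0691).

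The vehicle call of Rrm2b was lost in 18 of 22 alternatives. With all libraries kept, it was lost with RLE (0.0543), upper-quartile (0.0549) and library-size scaling (0.052), with no filter (0.0538), with the compared groups alone (0.0533), with DESeq2 (0.197), without Rn45s (above), with the replicate block and against a 1.5-fold change. It was also lost in 9 of the 12 fits that leave out a library (adjusted p of 0.102, 0.165 and 0.0632 without control vehicle replicates 1, 2 and 3, 0.251 and 0.094 without Adar-null vehicle replicates 2 and 3, 0.0507 without control IFNb replicate 2, and 0.0505, 0.055 and 0.0503 without Adar-null IFNb replicates 1, 2 and 3). Plk3, another polo-like kinase gene (-0.50 ± 0.20, adjusted p = 0.112), was called lower only without the control vehicle library of replicate 1 (0.0205).

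IFNb raised most of the p53 genes in both genotypes. In control cells 20 of 32 rose and 4 fell, against 26.5% and 26.5% of all genes. With library size alone as the scaling, the calls over all genes in this comparison were 2469 higher and 3796 lower, in place of 3067 and 3066. In Adar-null cells 27 of 32 rose and 2 fell, against 36.6% and 35.7%. Here library size alone gave 3618 genes higher and 4672 lower over all genes, in place of 4232 and 4132, and shifted the median gene by -0.09. The median log2 fold change of the 32 genes was 0.39 in control and 0.97 in Adar-null cells, with -0.01 and 0.01 over all genes. Of the 32 genes 18 rose in both genotypes. Another 6 were called higher in Adar-null cells and not called in control cells (Ppm1d, Gadd45a, Zmat3, Pltp, Epha2 and Dgka). Of these, Epha2 passed the filter on low counts only through the Adar-null libraries with IFNb, so its calls are not independent of that filter. The difference between its responses did not pass (edgeR, adjusted p = 0.0934). A further 3 fell in control and rose in Adar-null cells (Mdm4, Plk3 and Rrm2b). The control falls of Mdm4 and Plk3 were lost in 6 and 16 of 22 alternatives. Sesn1 rose in control and fell in Adar-null cells, and Ccng2 fell in both. Ei24 rose in control cells and did not pass in Adar-null cells, and Perp and Ddb2 passed in neither. These responses come from separate sets of 6 libraries. No share over all genes is given for the joint counts, so they only describe the list. By role, the counts of genes that rose in control and in Adar-null cells were 3 and 5 of 5 for p53 and its feedback regulators, 5 and 7 of 9 for arrest and growth control, 6 and 5 of 7 for cell death, 3 and 4 of 5 for DNA repair and nucleotide supply, and 3 and 6 of 6 for metabolism, secreted and membrane proteins.

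**Figure D1:**
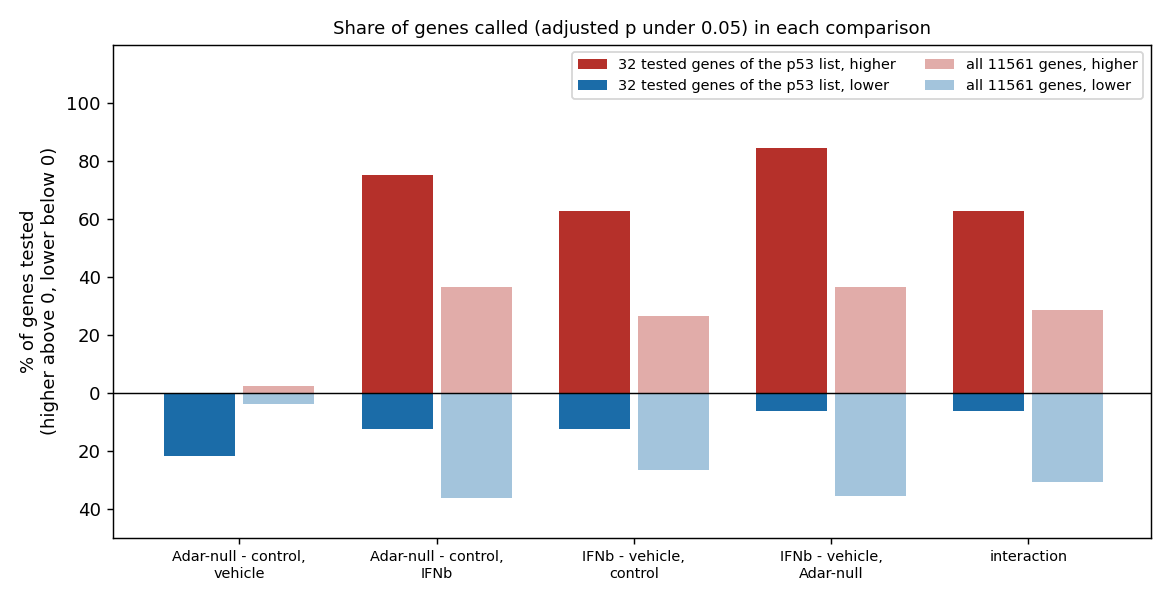
Share of genes called higher (above 0) or lower (below 0), in % of the genes tested, in each of the 5 comparisons; red stands for higher and blue for lower, full colour for the 32 tested p53 genes and pale colour for all 11561 genes. With IFNb in Adar-null cells 27 of the 32 genes were called higher, against 36.6% of all genes, and under vehicle none was.

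The interaction, in which the control response is subtracted from the Adar-null response, asks whether the genotypes respond by different amounts. It was called for 20 of the 32 genes in the direction of Adar-null cells and for 2 (Sesn1 and Ak1) in the other, against 28.6% and 30.7% of all genes. Its median was 0.63 over the 32 genes and 0.01 over all genes. Under IFNb itself 24 of 32 genes were higher in Adar-null than in control cells and 4 (Sesn1, Perp, Ak1 and Ccng2) were lower, against 36.4% and 36.2% of all genes. The median of this difference was 0.70, and 0.02 over all genes. The interaction shares its libraries with the other comparisons, so these counts are not independent of those above. All 5 genes of the feedback loop, 6 of 9 arrest genes, 4 of 7 death genes, 3 of 5 repair genes and 2 of 6 metabolic, secreted and membrane genes had the larger response in Adar-null cells.

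**Figure D2:**
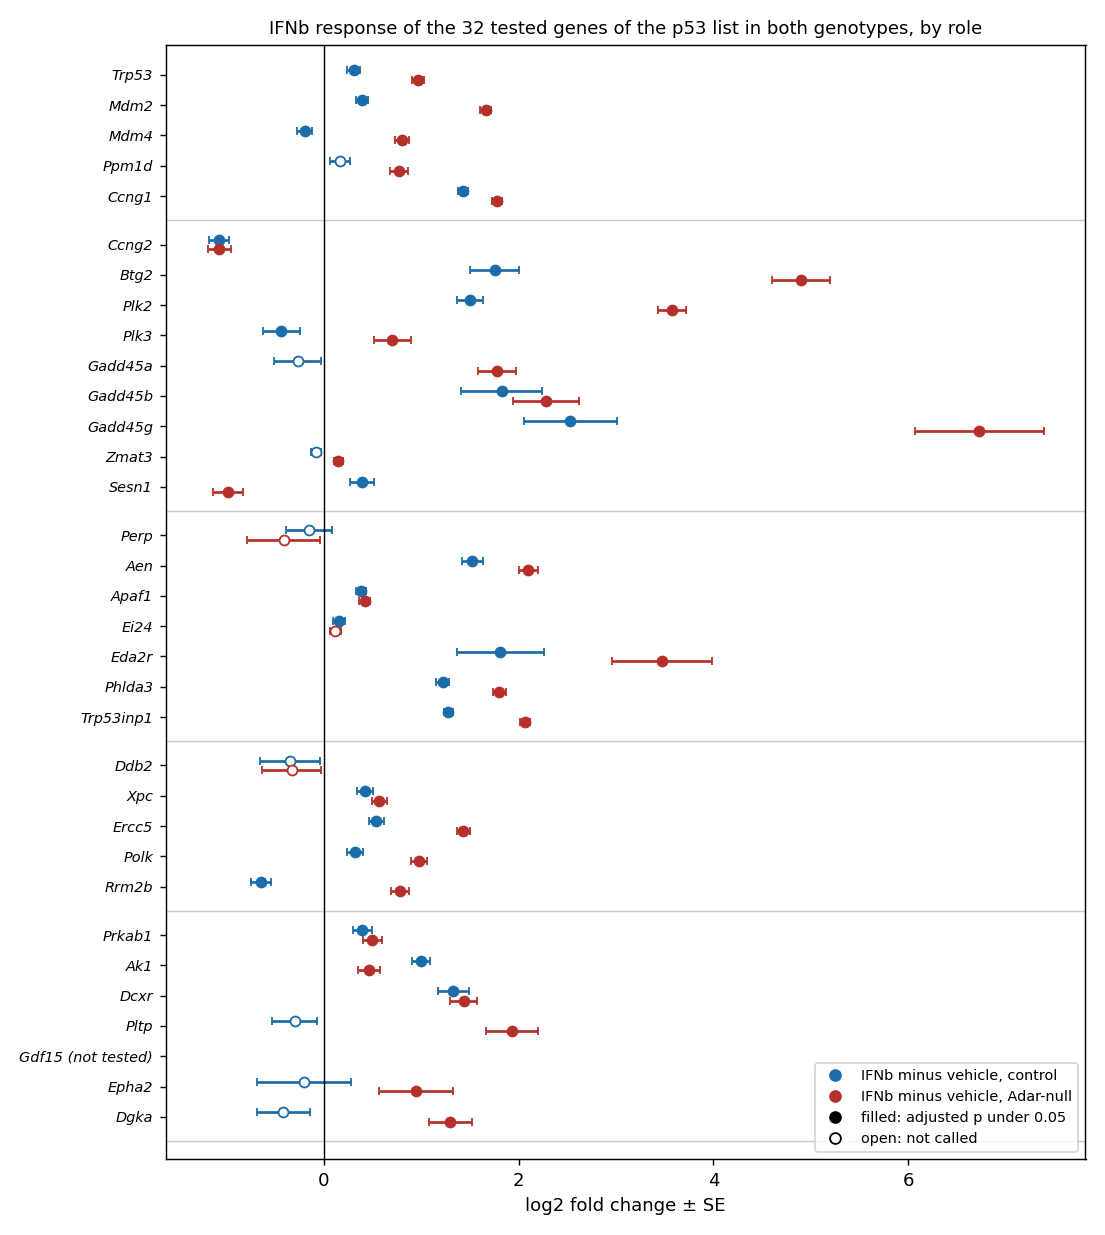
Log2 fold change ± standard error of IFNb against vehicle for the 32 tested genes, ordered by role, in control (blue) and Adar-null (red) cells; filled points passed the test. Gadd45g, Btg2 and Plk2 lie farthest to the right in Adar-null cells, at 6.73, 4.90 and 3.58, and Sesn1 and Rrm2b have points on opposite sides of 0.

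The p53 gene, Trp53, on chromosome 11 from 69580359 to 69591873 (plus strand) of GRCm38, was at 62.0, 60.0 and 63.0 CPM with vehicle and 75.5, 75.8 and 77.8 CPM with IFNb in control libraries, and 70.6, 69.3 and 67.0 CPM with vehicle and 135, 140.0 and 129 CPM with IFNb in Adar-null libraries. The Adar-null libraries with IFNb lay above all others, and the control libraries with IFNb above both vehicle groups. With vehicle the Adar-null libraries lay above the control libraries, a difference that did not pass the test (above). IFNb raised Trp53 by 0.31 ± 0.07 in control (adjusted p = 2.81e-05) and by 0.97 ± 0.06 in Adar-null cells (adjusted p = 6.6e-31), and the responses differed by 0.66 ± 0.09 (adjusted p = 1.34e-10). Mdm2, the ubiquitin ligase of p53, on chromosome 10 from 117688875 to 117710758 (minus strand), was at 69.8, 65.6 and 68.3 CPM with vehicle and 86.7, 90.0 and 89.9 CPM with IFNb in control libraries, and 68.9, 64.3 and 71.3 CPM with vehicle and 223, 208 and 216 CPM with IFNb in Adar-null libraries. Its vehicle groups overlapped, while the groups with IFNb lay apart from them and from each other. It rose 1.31-fold in control (0.39 ± 0.06) and 3.16-fold in Adar-null cells (1.66 ± 0.06), with a difference of 1.27 ± 0.08 between the responses (adjusted p = 5.39e-28). Mdm4, which encodes an inhibitor related to MDM2, was at 56.2, 61.0 and 67.7 CPM with vehicle and 47.5, 58.6 and 54.4 CPM with IFNb in control libraries, and 69.4, 58.7 and 66.0 CPM with vehicle and 125, 107 and 106 CPM with IFNb in Adar-null libraries. Only the Adar-null libraries with IFNb stood apart; the control libraries with IFNb overlapped those with vehicle. Mdm4 rose in Adar-null cells (0.80 ± 0.07, adjusted p = 1.11e-17) and was called lower in control cells (-0.20 ± 0.08, adjusted p = 0.0313). This second call ended without control vehicle replicate 2 (adjusted p = 0.0596) or 3 (0.23; value -0.13), without control IFNb replicate 1 (0.216; value -0.12) or 3 (0.0571) and with DESeq2 (0.0822). The difference between the responses, 1.00 ± 0.11, passed (adjusted p = 1.42e-13).

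Ppm1d, the gene of the phosphatase WIP1 that acts on p53 and its kinases, was at 24.9, 24.7 and 29.3 CPM with vehicle and 30.1, 28.0 and 30.4 CPM with IFNb in control libraries, and 24.0, 29.5 and 28.9 CPM with vehicle and 45.3, 46.8 and 49.2 CPM with IFNb in Adar-null libraries. The Adar-null libraries with IFNb lay above all others, and the other 3 groups overlapped. It rose in Adar-null cells (0.77 ± 0.09, adjusted p = 5.12e-13), was at 0.17 ± 0.10 in control cells (adjusted p = 0.169), and differed between the responses by 0.61 ± 0.14 (adjusted p = 7.03e-05). Ccng1, the gene of cyclin G1, which directs a phosphatase to MDM2, was at 139, 133 and 131 CPM with vehicle and 380.3, 368 and 334 CPM with IFNb in control libraries, and 103, 99.8 and 111 CPM with vehicle and 349.6, 368 and 354 CPM with IFNb in Adar-null libraries. Here both groups with IFNb overlapped, well above the vehicle groups, and the Adar-null libraries with vehicle lay below the control libraries with vehicle. Ccng1 rose by 1.43 ± 0.05 in control cells and 1.78 ± 0.05 in Adar-null cells. The responses differed by 0.35 ± 0.07 (adjusted p = 1.24e-05), while the levels reached under IFNb differed by -0.01 ± 0.05 (adjusted p = 0.812). With vehicle Ccng1 had been lower in Adar-null cells (above).

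**Figure D3:**
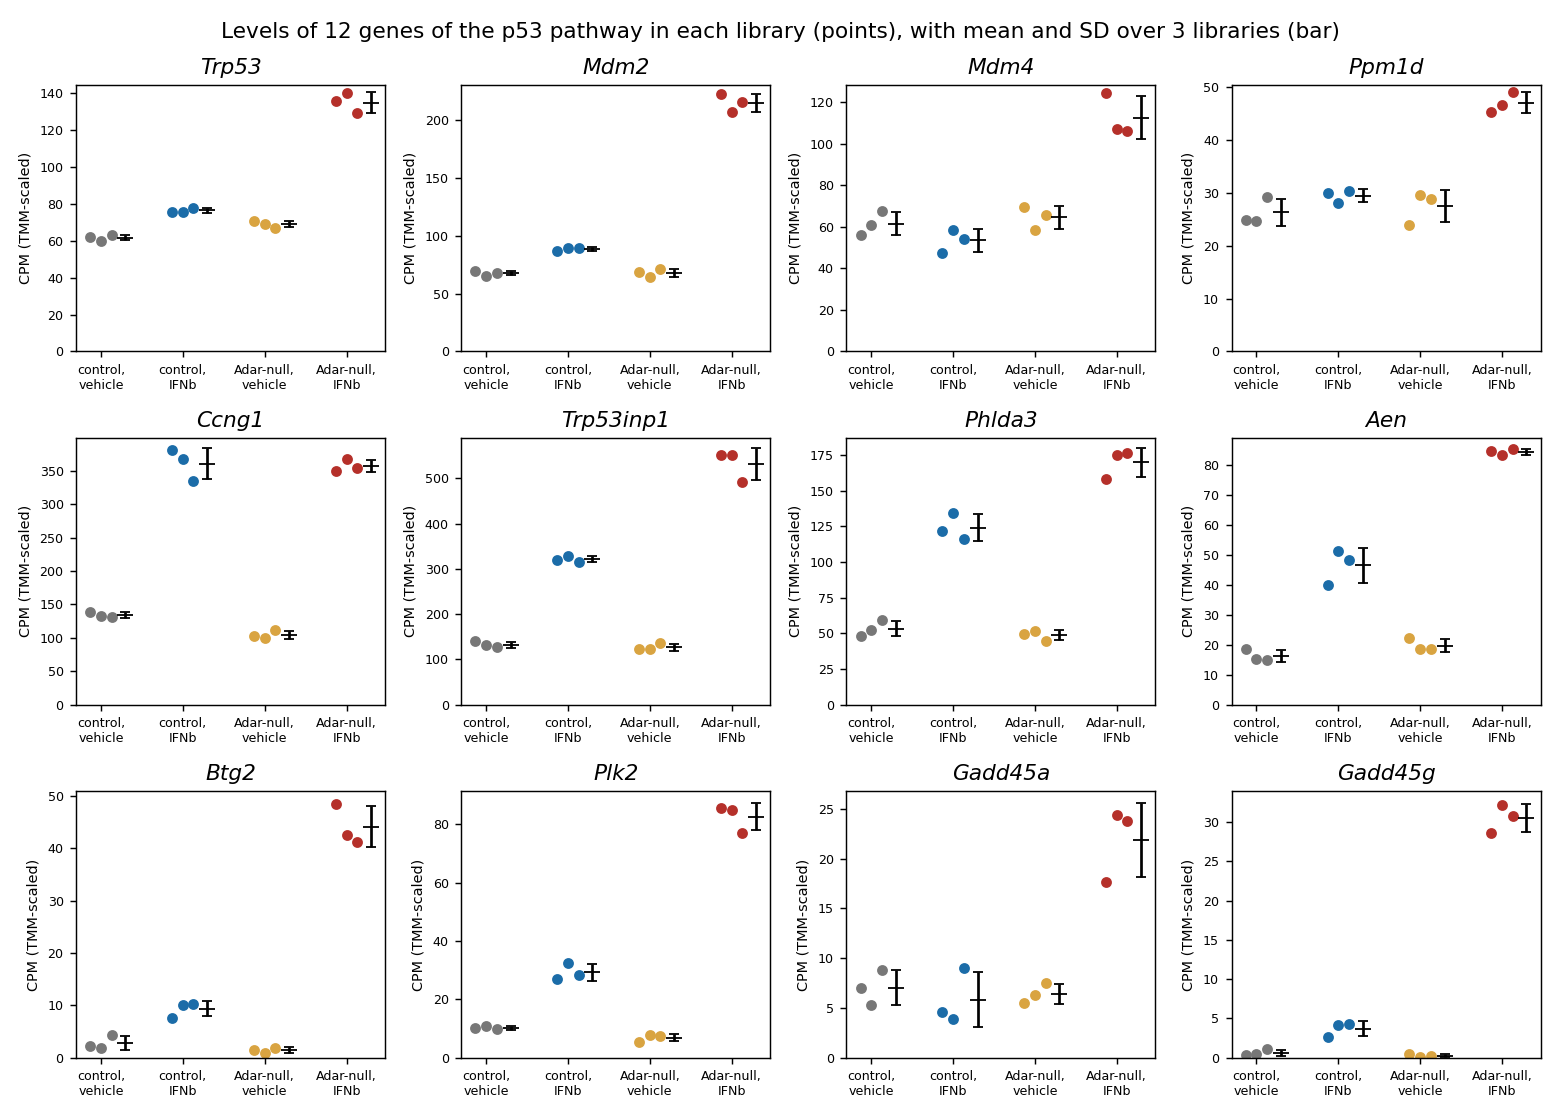
Levels in CPM (vertical axes, each from 0) of 12 genes in the 12 libraries, grouped by genotype and treatment; each point is 1 library, and the bar beside them shows mean and SD (n = 3). In all panels except Ccng1 the Adar-null libraries with IFNb are the highest, as for Mdm2 at 208 to 223 CPM.

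Among the genes of arrest and growth control, 3 had the largest rises of the list in Adar-null cells: Gadd45g, Btg2 and Plk2. Gadd45g, a stress-induced gene whose product binds stress kinases, had 11 counts over the control libraries with vehicle, 72 with IFNb, 5 over the Adar-null libraries with vehicle and 559 with IFNb. That corresponds to 0.351, 0.495 and 1.08 CPM with vehicle and 2.67, 4.15 and 4.34 CPM with IFNb in control libraries, and 0.514, 0.138 and 0.178 CPM with vehicle and 28.6, 32.2 and 30.7 CPM with IFNb in Adar-null libraries. The vehicle groups overlapped near the limit of detection, and each IFNb group stood clear of them. It rose by 2.53 ± 0.48 in control cells and 6.73 ± 0.66 in Adar-null cells, and the responses differed by 4.20 ± 0.82 (adjusted p = 1.64e-06). Without Adar-null vehicle replicate 1 the response of Adar-null cells was 7.44 and the difference 4.91. Btg2, an antiproliferative gene, was at 2.28, 1.81 and 4.33 CPM with vehicle and 7.66, 10.2 and 10.2 CPM with IFNb in control libraries, and 1.54, 0.966 and 1.96 CPM with vehicle and 48.5, 42.5 and 41.1 CPM with IFNb in Adar-null libraries. Its vehicle groups overlapped, while with IFNb the Adar-null libraries were several-fold above the control libraries (2.22 ± 0.14). It rose by 1.76 ± 0.25 in control cells and 4.90 ± 0.30 in Adar-null cells (difference 3.15 ± 0.39, adjusted p = 2.48e-12). Plk2, on chromosome 13 from 110395046 to 110400844 (plus strand), was at 10.2, 11.1 and 9.75 CPM with vehicle and 27.1, 32.5 and 28.4 CPM with IFNb in control libraries, and 5.48, 7.73 and 7.31 CPM with vehicle and 85.6, 84.9 and 77.2 CPM with IFNb in Adar-null libraries. None of its 4 groups overlapped another: Adar-null cells were the lowest with vehicle and the highest with IFNb. Its rise was 1.51 ± 0.13 in control cells and 3.58 ± 0.14 in Adar-null cells (difference 2.07 ± 0.19, adjusted p = 5.61e-18).

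Gadd45a, on chromosome 6 from 67035096 to 67037457 (minus strand), was at 7.03, 5.28 and 8.85 CPM with vehicle and 4.63, 3.86 and 8.99 CPM with IFNb in control libraries, and 5.48, 6.35 and 7.49 CPM with vehicle and 17.6, 24.4 and 23.7 CPM with IFNb in Adar-null libraries. Only the Adar-null libraries with IFNb stood apart. It rose in Adar-null cells (1.78 ± 0.20, adjusted p = 9.83e-12) and was at -0.27 ± 0.24 in control cells (adjusted p = 0.367), where it was called lower without control IFNb replicate 3 (adjusted p = 0.0111). The difference between the responses was 2.05 ± 0.31 (adjusted p = 1.92e-07). Of its exonic bases 19.1% overlap the antisense gene E230016M11Rik, which had at most 16 counts in a group. Gadd45b, the third gene of this family, ranged over 0 to 2.11 CPM with vehicle and 3.86 to 5.16 CPM with IFNb in control libraries, and 1.38 to 1.88 and 7.07 to 9.97 CPM in Adar-null libraries. It rose in both genotypes (1.83 ± 0.41 in control, 2.28 ± 0.34 in Adar-null cells) and the difference between responses did not pass (0.46 ± 0.53, adjusted p = 0.484). The control value moved to 2.46 without control vehicle replicate 1, to 1.21 without replicate 2, which had no count, and to 2.75 with limma-voom. The difference between its responses moved with the same choices, to -0.18 without control vehicle replicate 1, 1.07 without replicate 2 (adjusted p = 0.0567), 0.21 without replicate 3 and -0.52 with limma-voom, so its direction is not settled.

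Plk3 moved in opposite directions in the genotypes. It was at 6.15, 10.1 and 11.02 CPM with vehicle and 5.88, 6.87 and 7.28 CPM with IFNb in control libraries, and 7.20, 7.04 and 4.81 CPM with vehicle and 9.28, 10.1 and 11.9 CPM with IFNb in Adar-null libraries. The Adar-null libraries with IFNb lay above those with vehicle and above the control libraries with IFNb, but overlapped the control libraries with vehicle. It rose in Adar-null cells (0.70 ± 0.19, adjusted p = 0.000509). The fall in control cells (-0.44 ± 0.19, adjusted p = 0.0488) was at the threshold: it was lost in every fit that left out a library except without control vehicle replicate 1 and Adar-null vehicle replicate 3 (adjusted p from 0.0509 without Adar-null IFNb replicate 1 to 0.29 and a value of -0.28 without control vehicle replicate 3), with DESeq2 (0.129) and with limma-voom (0.102). The difference between the responses passed (1.14 ± 0.27, adjusted p = 0.000136). Sesn1, the gene of sestrin 1, which restrains growth signalling through mTORC1, went the other way. It was at 17.2, 20.6 and 16.6 CPM with vehicle and 20.3, 27.3 and 23.4 CPM with IFNb in control libraries, and 15.8, 18.2 and 20.0 CPM with vehicle and 7.95, 8.72 and 10.4 CPM with IFNb in Adar-null libraries. The Adar-null libraries with IFNb lay below all others. Sesn1 fell in Adar-null cells (-0.98 ± 0.15, adjusted p = 3.15e-09) and rose in control cells (0.39 ± 0.12, adjusted p = 0.00439), a rise lost without control IFNb replicate 2 (adjusted p = 0.0877). The responses differed by -1.37 ± 0.20 (adjusted p = 4.82e-10). Zmat3, which encodes a zinc finger protein that binds RNA, was at 155, 154 and 172 CPM with vehicle and 152, 151 and 152 CPM with IFNb in control libraries, and 152, 157 and 162 CPM with vehicle and 176, 177 and 169.8 CPM with IFNb in Adar-null libraries. The spread between groups was small, and the Adar-null libraries with IFNb overlapped the control libraries with vehicle. Zmat3 was at -0.08 ± 0.05 in control cells (adjusted p = 0.16) and rose by 0.15 ± 0.05 in Adar-null cells (adjusted p = 0.00372; 0.272 and a value of 0.06 with library size alone as the scaling). In control cells it was called lower with upper-quartile scaling (0.0481) and with library size alone (0.00714). The difference between the responses was 0.23 ± 0.07 (adjusted p = 0.00241).

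Ccng2, which encodes cyclin G2, fell with IFNb in both genotypes. It was at 37.6, 39.9 and 44.4 CPM with vehicle and 18.7, 19.3 and 19.7 CPM with IFNb in control libraries, and 32.2, 32.9 and 28.2 CPM with vehicle and 11.7, 14.6 and 17.7 CPM with IFNb in Adar-null libraries. No 2 groups overlapped, and Adar-null cells were lower with either treatment. The fall was -1.08 ± 0.11 in control cells and -1.07 ± 0.12 in Adar-null cells, a difference of 0.00 ± 0.16 that did not pass (adjusted p = 0.991). Under IFNb the genotypes differed by -0.38 ± 0.13 (adjusted p = 0.00604), a call that ended without Adar-null IFNb replicate 1 (0.074).

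Of the 7 genes tied to cell death, 6 rose in control and 5 in Adar-null cells, against 26.5% and 36.6% of all genes. Trp53inp1, which encodes a nuclear stress protein that supports p53, was at 139.7, 131 and 126 CPM with vehicle and 319.9, 329 and 316 CPM with IFNb in control libraries, and 123, 122 and 136 CPM with vehicle and 553, 552 and 491 CPM with IFNb in Adar-null libraries. The vehicle groups overlapped, and the IFNb groups lay above them, Adar-null higher than control. It rose 2.43-fold in control (1.28 ± 0.05) and 4.19-fold in Adar-null cells (2.07 ± 0.05); the responses differed by 0.79 ± 0.07 (adjusted p = 5.4e-19). Phlda3, the gene of a competitor of AKT for membrane lipids, was at 48.3, 52.4 and 59.0 CPM with vehicle and 121, 134 and 116 CPM with IFNb in control libraries, and 49.5, 51.5 and 44.8 CPM with vehicle and 158, 175 and 176 CPM with IFNb in Adar-null libraries. The order of the groups was the same as for Trp53inp1, with rises of 1.22 ± 0.07 and 1.80 ± 0.07 in control and Adar-null cells and a difference of 0.58 ± 0.10 (adjusted p = 9.22e-08). Aen, the gene of an apoptosis-enhancing nuclease, was at 18.6, 15.2 and 15.0 CPM with vehicle and 39.9, 51.2 and 48.4 CPM with IFNb in control libraries, and 22.1, 18.5 and 18.5 CPM with vehicle and 84.5, 83.3 and 85.3 CPM with IFNb in Adar-null libraries. Again only the vehicle groups overlapped. Aen rose by 1.52 ± 0.11 and 2.10 ± 0.10 (difference 0.58 ± 0.15, adjusted p = 0.000349). Eda2r, a receptor gene of the TNF receptor family, had 15 and 10 counts over the control and Adar-null libraries with vehicle and 59 and 112 with IFNb. It was at 0.527, 1.15 and 0.903 CPM with vehicle and 3.74, 2.57 and 3.10 CPM with IFNb in control libraries, and 0.171, 0.552 and 0.891 CPM with vehicle and 6.82, 5.86 and 5.85 CPM with IFNb in Adar-null libraries. The vehicle groups overlapped and the IFNb groups did not. It rose by 1.81 ± 0.45 in control cells and 3.47 ± 0.51 in Adar-null cells. The difference between the responses (1.66 ± 0.68, adjusted p = 0.0254) was lost without control vehicle replicate 2 (0.126) or 3 (0.0519), control IFNb replicate 2 (0.0511) or Adar-null vehicle replicate 1 (0.0992).

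Perp differed between the genotypes with either treatment, and neither of its IFNb responses passed. It was at 5.97, 4.95 and 6.86 CPM with vehicle and 6.94, 5.29 and 3.88 CPM with IFNb in control libraries, and 3.08, 2.07 and 1.43 CPM with vehicle and 1.51, 1.65 and 1.74 CPM with IFNb in Adar-null libraries. The Adar-null libraries lay below the control libraries with either treatment and did not overlap them. The genotype difference was -1.42 ± 0.30 with vehicle and -1.68 ± 0.33 with IFNb (adjusted p = 6.34e-07), and the IFNb responses were -0.15 ± 0.24 in control (adjusted p = 0.609) and -0.41 ± 0.38 in Adar-null cells (adjusted p = 0.317). Apaf1, the scaffold of the apoptosome, ranged over 93.5 to 96.6 CPM with vehicle and 118 to 127 CPM with IFNb in control libraries, and 87.8 to 102 and 120.2 to 129 CPM in Adar-null libraries. It rose in both genotypes (0.38 ± 0.06 and 0.42 ± 0.06); the difference of 0.04 ± 0.08 did not pass (adjusted p = 0.687). Ei24, an endoplasmic reticulum gene first found as induced by etoposide, ranged over 81.5 to 97.5 CPM with vehicle and 100.4 to 103 CPM with IFNb in control libraries, and 81.5 to 92.8 and 93.7 to 97.4 CPM in Adar-null libraries. Its rise in control cells (0.16 ± 0.06, adjusted p = 0.0193) was lost without control vehicle replicate 1 (adjusted p = 0.274, value 0.09) or control IFNb replicate 3 (0.0598), with upper-quartile scaling (0.058), library size alone (0.246, value 0.08) and DESeq2 (0.0644). In Adar-null cells Ei24 was at 0.12 ± 0.06 (adjusted p = 0.0668, and 0.0313 without Adar-null vehicle replicate 2).

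Of the 5 genes of DNA repair and nucleotide supply, 3 (Ercc5, Polk and Rrm2b) were called higher in the interaction, against 28.6% of all genes. Ercc5, the gene of the XPG nuclease of nucleotide excision repair, was at 40.9, 45.7 and 45.3 CPM with vehicle and 61.2, 63.8 and 66.8 CPM with IFNb in control libraries, and 51.2, 42.2 and 49.4 CPM with vehicle and 125, 126 and 132 CPM with IFNb in Adar-null libraries. The vehicle groups overlapped, and with IFNb the Adar-null libraries were the higher. It rose by 0.54 ± 0.08 and 1.43 ± 0.07 in control and Adar-null cells (difference 0.89 ± 0.10, adjusted p = 1.79e-13). Polk, the gene of the translesion polymerase kappa, was at 42.9, 37.6 and 38.5 CPM with vehicle and 44.7, 50.6 and 52.5 CPM with IFNb in control libraries, and 37.9, 34.5 and 39.8 CPM with vehicle and 75.6, 70.5 and 74.0 CPM with IFNb in Adar-null libraries. Its groups had the same order. It rose by 0.32 ± 0.08 and 0.98 ± 0.08 (difference 0.66 ± 0.11, adjusted p = 2.56e-07). The other genes of the group, Xpc and Ddb2, act in lesion recognition. Xpc ranged over 34.5 to 41.2 CPM with vehicle and 49.5 to 51.5 CPM with IFNb in control libraries, and 39.4 to 44.6 and 60.6 to 63.6 CPM in Adar-null libraries and rose in both genotypes (0.43 ± 0.08 and 0.57 ± 0.08), with a difference of 0.15 ± 0.11 that did not pass (adjusted p = 0.271). Ddb2 ranged over 2.71 to 3.87 CPM with vehicle and 1.86 to 3.29 CPM with IFNb in control libraries, and 2.67 to 3.60 and 2.21 to 2.86 CPM in Adar-null libraries, and neither its response in control (-0.35 ± 0.31, adjusted p = 0.341) nor that in Adar-null cells (-0.33 ± 0.31, adjusted p = 0.327) passed. Of the exonic bases of Ddb2 23.8% overlap Acp2 on the other strand, which was at 40.0 ± 2.04 CPM in control cells with vehicle, above Ddb2 itself as counted, so the level of Ddb2 is uncertain.

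Rrm2b, the p53-inducible small subunit of ribonucleotide reductase, on chromosome 15 from 37923952 to 37961318 (minus strand), went in opposite directions. It was at 34.8, 35.3 and 33.8 CPM with vehicle and 22.6, 23.6 and 20.3 CPM with IFNb in control libraries, and 31.0, 26.2 and 28.0 CPM with vehicle and 48.5, 50.2 and 47.3 CPM with IFNb in Adar-null libraries. No 2 groups overlapped: the control libraries with IFNb were the lowest and the Adar-null libraries with IFNb the highest. It fell by 0.64 ± 0.10 on the log2 scale in control (adjusted p = 2.39e-08) and rose by 0.78 ± 0.09 in Adar-null cells (adjusted p = 9.26e-14). The difference between the responses was 1.43 ± 0.14 (adjusted p = 1.36e-17), and it kept its call and direction in all alternatives run.

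**Figure D4:**
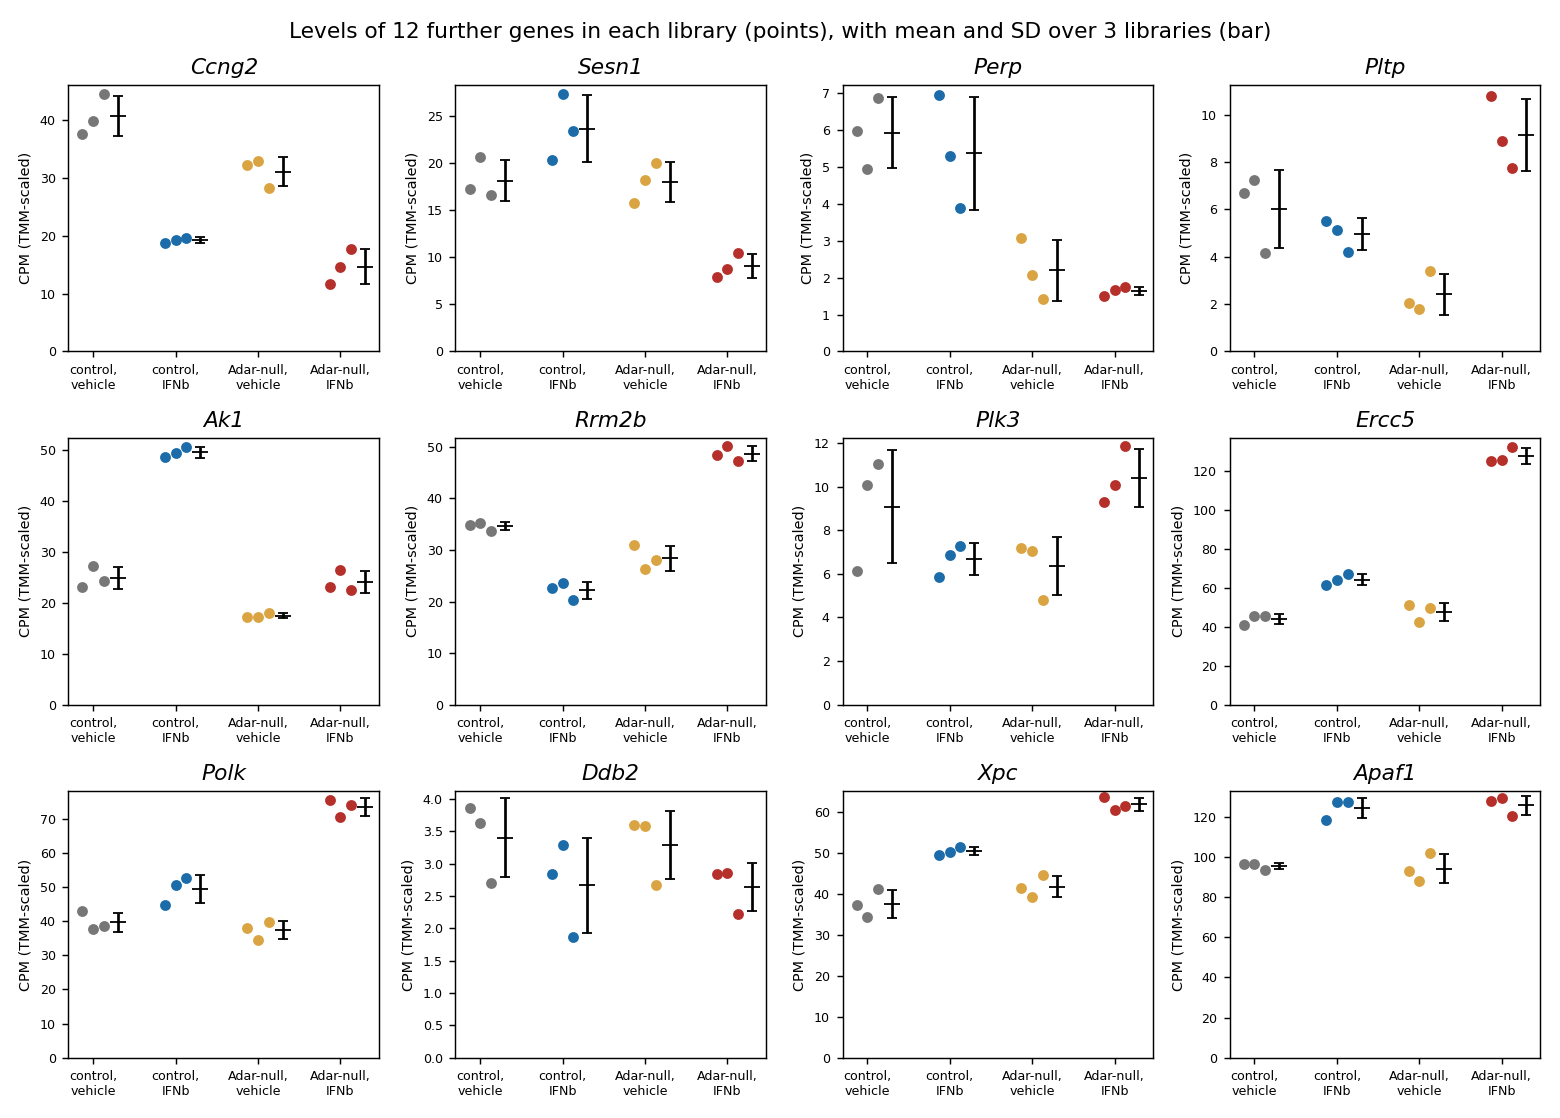
Levels in CPM (vertical axes, each from 0) of 12 further genes in the 12 libraries, grouped by genotype and treatment; each point is 1 library, and the bar beside them shows mean and SD (n = 3). Sesn1 is lowest and Rrm2b highest in Adar-null libraries with IFNb, at 7.95 to 10.4 and 47.3 to 50.2 CPM, and Perp is lower in Adar-null libraries with either treatment.

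Pltp had the largest difference between responses among the genes of metabolism, secretion and the membrane. It was at 6.68, 7.26 and 4.15 CPM with vehicle and 5.52, 5.15 and 4.18 CPM with IFNb in control libraries, and 2.06, 1.79 and 3.39 CPM with vehicle and 10.8, 8.87 and 7.75 CPM with IFNb in Adar-null libraries. The Adar-null libraries were the lowest with vehicle and the highest with IFNb, and the control groups overlapped. It rose in Adar-null cells (1.93 ± 0.27, adjusted p = 1.01e-11) and was at -0.30 ± 0.23 in control cells (adjusted p = 0.278), a difference of 2.23 ± 0.35 (adjusted p = 1.03e-08). Of its exonic bases 19.3% overlap Ctsa on the other strand, whose own response was 0.00 ± 0.06 in control cells and 0.12 ± 0.06 in Adar-null cells (adjusted p = 0.0661). Ctsa was lower in Adar-null than in control cells with vehicle (-0.31 ± 0.06, adjusted p = 0.000156), as Pltp was, and with IFNb (-0.19 ± 0.06, adjusted p = 0.00437), at 71.8 to 83.0 CPM in Adar-null libraries with vehicle; its part in the results of Pltp was not tested. Dgka, the gene of diacylglycerol kinase alpha, was at 3.69, 5.28 and 3.97 CPM with vehicle and 2.85, 4.15 and 2.63 CPM with IFNb in control libraries, and 4.28, 3.45 and 4.10 CPM with vehicle and 10.2, 8.12 and 10.8 CPM with IFNb in Adar-null libraries. Only the Adar-null libraries with IFNb stood apart. It rose in Adar-null cells (1.30 ± 0.22, adjusted p = 5.21e-08), was at -0.41 ± 0.27 in control cells (adjusted p = 0.187), and differed by 1.71 ± 0.35 (adjusted p = 8.19e-06). Dgka shares 2.2% of its exonic bases with the antisense melanosome gene Pmel, which was counted at 2931 ± 18.0 CPM (SD, n = 3) with vehicle and 1832 ± 87.0 CPM with IFNb in Adar-null cells, far above Dgka, so the level of Dgka is uncertain; the part of Pmel in the result was not tested. Ak1, the gene of an enzyme that balances adenine nucleotides, was at 23.0, 27.2 and 24.2 CPM with vehicle and 48.6, 49.5 and 50.7 CPM with IFNb in control libraries, and 17.1, 17.3 and 18.0 CPM with vehicle and 23.1, 26.5 and 22.5 CPM with IFNb in Adar-null libraries. The control libraries with IFNb stood above all others, and the Adar-null libraries with vehicle below all others. It rose more in control (1.00 ± 0.10, adjusted p = 1.66e-17) than in Adar-null cells (0.47 ± 0.12, adjusted p = 0.000166), by the difference of -0.53 ± 0.15 (adjusted p = 0.00132).

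The other genes of this group had responses whose difference between genotypes did not pass. Dcxr, a reductase gene of sugar metabolism, ranged over 7.09 to 8.85 CPM with vehicle and 18.0 to 22.0 CPM with IFNb in control libraries, and 7.31 to 10.8 and 24.1 to 28.5 CPM in Adar-null libraries. It rose by 1.33 ± 0.16 and 1.44 ± 0.14 in control and Adar-null cells (difference 0.11 ± 0.21, adjusted p = 0.688). It was higher in Adar-null cells under IFNb (0.36 ± 0.12, adjusted p = 0.00399), a call lost without Adar-null IFNb replicate 3 (0.0657). Prkab1, the gene of a regulatory subunit of the energy sensor AMPK, ranged over 24.9 to 26.7 CPM with vehicle and 30.5 to 35.8 CPM with IFNb in control libraries, and 25.9 to 33.5 and 39.1 to 42.4 CPM in Adar-null libraries and rose by 0.40 ± 0.10 and 0.50 ± 0.09 (difference 0.10 ± 0.14, adjusted p = 0.537). Epha2, an ephrin receptor gene, ranged over 0.990 to 1.76 CPM with vehicle and 0.775 to 1.29 CPM with IFNb in control libraries, and 1.25 to 1.66 and 1.90 to 3.60 CPM in Adar-null libraries. It rose in Adar-null cells (0.95 ± 0.38, adjusted p = 0.0165), a call lost without Adar-null vehicle replicate 3 (0.0551), without Adar-null IFNb replicate 1 (0.0814) or 2 (0.0783) and with DESeq2 (0.057). Its difference between responses (1.15 ± 0.62, adjusted p = 0.0934) passed only without Adar-null IFNb replicate 3 (0.0496). Epha2 passed the filter on low counts only through the Adar-null libraries with IFNb (19, 22 and 12 counts). The other libraries held 5 to 12 counts, so its calls are not independent of that filter. Gdf15, left out of the test, had 19, 10, 11 and 23 counts over the 3 libraries of control cells with vehicle and IFNb and of Adar-null cells with vehicle and IFNb, with 0.703 to 1.62 CPM with vehicle and 0.429 to 0.620 CPM with IFNb in control libraries, and 0.178 to 0.857 and 0.752 to 1.74 CPM in Adar-null libraries. The control and Adar-null libraries with IFNb did not overlap, at 10 and 23 counts a group.

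**Figure D5:**
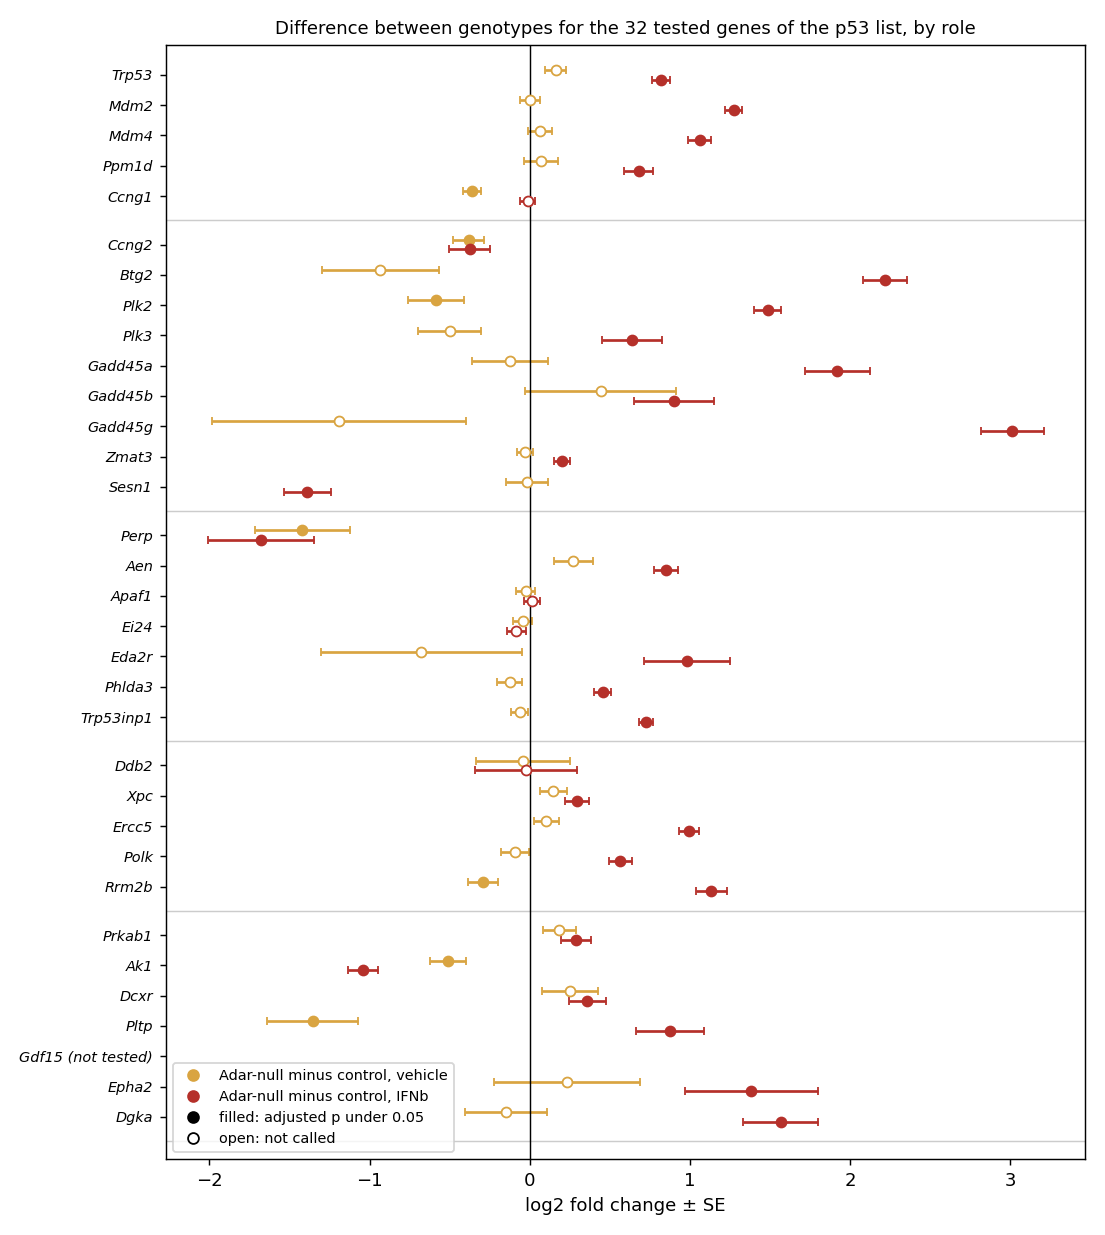
Log2 fold change ± standard error of Adar-null against control cells for the 32 tested genes, ordered by role, with vehicle (ochre) and with IFNb (red); filled points passed the test. With vehicle most points are open and near 0. With IFNb 24 filled points lie to the right of 0 and 4 to the left, against 36.4% and 36.2% of all genes.

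A second list of 30 p53 targets, which includes the CDK inhibitor and BCL2 family genes left out above, had 27 tested genes. Of these 0 were higher and 4 lower in Adar-null cells with vehicle, against 2.47% and 4.05% of all genes. The counts were 3 and 7 at an unadjusted p under 0.05, 0 and 2 with DESeq2, and 0 and 4 with limma-voom. With IFNb 16 rose and 6 fell in control cells, against 26.5% and 26.5% of all genes, and 18 rose and 6 fell in Adar-null cells, against 36.6% and 35.7%. The interaction was called higher for 10 and lower for 10 of 27, against 28.6% and 30.7% of all genes, with a median of 0.09. In the first list it was higher for 20 and lower for 2 of 32. Under IFNb 11 of the 27 were higher and 10 lower in Adar-null than in control cells, against 36.4% and 36.2% of all genes. The median of this difference was 0.12. Whether the lists differ was not tested. Cdkn1a, the gene of the CDK inhibitor p21, went from 101 ± 6.18 to 598 ± 2.02 CPM (SD, n = 3) with IFNb in control and from 80.2 ± 0.958 to 892 ± 32.9 CPM in Adar-null cells (difference of the responses 0.91 ± 0.07). With vehicle the largest falls were Vdr, the vitamin D receptor gene (-1.33 ± 0.45, adjusted p = 0.0381), and Cd82, a tetraspanin gene (-0.37 ± 0.12, adjusted p = 0.0356). Both calls were lost with DESeq2 (adjusted p of 0.115 and 0.216), without control vehicle replicate 1 (0.0787 and 0.15) or 2 (0.206 and 0.176), and without Adar-null vehicle replicate 1 (0.119 and 0.132) or 2 (0.183 and 0.0869). That of Cd82 was also lost without Adar-null vehicle replicate 3 (0.0692) and that of Vdr with limma-voom (0.0553). With IFNb in control cells Cdkn1a (2.56 ± 0.05) and Pml, the gene of the nuclear body scaffold that interferon also induces (2.28 ± 0.06), rose the most, and Ddit4 (-1.43 ± 0.10) and Sesn2 (-1.20 ± 0.07), which both restrain mTORC1 and are also targets of ATF4, fell the most. In Adar-null cells the largest rises included Lif, a cytokine gene with 0 counts with vehicle and 97 with IFNb (at least 33.1-fold higher, against a floor of 3 counts over the group). The largest falls were Ckap2, a spindle gene (-1.46 ± 0.11), and Cd82 (-1.45 ± 0.16). Under IFNb, Bbc3, the gene of the death-promoting BH3 protein PUMA, was 6.82-fold higher in Adar-null than in control cells (2.77 ± 0.12, adjusted p = 2.32e-49), Lif was also higher (2.39 ± 0.41), and Ckap2 (-1.68 ± 0.11) and Ephx1, an epoxide hydrolase gene (-1.31 ± 0.06), were lower. In the interaction Lif was among the highest (adjusted p = 0.00141), and Ckap2 (-1.82 ± 0.14) and Ephx1 (-1.01 ± 0.09) were lowest. Lif passed the filter on low counts only through the Adar-null libraries with IFNb (27, 35 and 35 counts). The other libraries held 0 to 10 counts of Lif, so its calls are not independent of that filter.

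Another list holds 20 kinases, ligases, cofactors and relatives of p53, of which 17 were tested. None was called with vehicle by edgeR, DESeq2 or limma-voom, and 0 were higher and 1 lower at an unadjusted p under 0.05. Of the 17, 4 rose and 6 fell with IFNb in control cells, against 26.5% and 26.5% of all genes, and 11 rose and 4 fell in Adar-null cells, against 36.6% and 35.7%. Atm, the gene of the kinase of double-strand breaks, rose in both (0.75 ± 0.06 and 0.84 ± 0.06), as did Trp53bp1, a break repair factor (0.28 ± 0.06 and 0.47 ± 0.06). Chek2, a checkpoint kinase gene, fell in both (-0.48 ± 0.11 and -0.49 ± 0.12), and the ligase gene Cop1, counted under its older symbol Rfwd2, fell in control cells (-0.55 ± 0.13) and was at -0.25 ± 0.12 in Adar-null cells (adjusted p = 0.058). Chek1, the gene of the replication checkpoint kinase, fell by 2.98 ± 0.16 on the log2 scale in Adar-null cells, with a difference between responses of -2.90 ± 0.18 (adjusted p = 2.58e-33). Rchy1, the gene of the p53 ligase PIRH2, rose in Adar-null cells (0.96 ± 0.09; difference 1.07 ± 0.14), the acetyltransferase gene Kat5 differed between the responses by 0.84 ± 0.15 and between genotypes under IFNb by 0.83 ± 0.11, and the kinase gene Hipk2 was lower in both comparisons (-0.61 ± 0.08 and -0.51 ± 0.06). Under IFNb Rchy1 was higher in Adar-null cells by 1.05 ± 0.09 and Chek1 lower (-2.91 ± 0.16). Of the 17, 9 were higher and 3 lower in Adar-null than in control cells under IFNb, against 36.4% and 36.2% of all genes. The interaction was called higher for 8 and lower for 3, against 28.6% and 30.7%. Cdkn2a, whose ARF product holds back MDM2, had no count in any of the 12 libraries.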

How the data were processed

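RNA was measured in 12 libraries. Per the labels' protocols, ribosomal RNA was removed from total RNA, directional libraries were made, and both ends were read for 37 bases. Per the submitters' processing notes, the mm10 build was used, with the tools HTSeq 0.6.1p1, Bowtie2 2.2.4, Trimmomatic 0.33, bcl2fastq 2.19.1 and DESeq2; settings, strand option and gene models were not given in the sources used here. Deposited values are raw counts per gene symbol: whole numbers, with totals that differ between libraries, not normalised.

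After a filter on low counts (filterByExpr, by group, 11561 genes left), libraries were scaled by TMM and genes were tested with the quasi-likelihood test of edgeR 4.0.16 (robust) over all 12 libraries with 1 term per group; p-values were adjusted over all genes by the Benjamini-Hochberg method and called under 0.05. Standard errors are Wald errors from the quasi-likelihood variance, not below counting error. The test was tried on simulated data with known changes. Positions and exon overlaps come from GENCODE M21 (GRCm38), promoters from RefSeq. Without a known strand option, reads of overlapping genes on opposite strands cannot be told apart. No pair of replicates agreed within sampling noise (chi-square per degree of freedom 1.47 to 3.23). Alternatives were other scalings, no filter, the DESeq2 1.42.0 Wald test, limma-voom (3.58.1), a test against a 1.5-fold change, a replicate block, fits of the compared groups alone and leaving out each library.

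The 33 genes and the other lists were chosen with earlier results of these data known. All 33 are described; values per library are given for genes called under vehicle or in the interaction, and of the other p53 lists Cdkn1a and the 2 largest called rises and falls per comparison are named, except an item that is not reported here. Floors and intervals cover counting error only.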

Additional observations from a re-analysis of the deposited data

Results flagged for a closer look

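For 22 of the 32 tested genes the IFNb response differed between the genotypes by the interaction test (edgeR, adjusted p under 0.05), 20 higher and 2 lower, against 28.6% and 30.7% of all genes; the values are log2 fold changes in Adar-null cells minus those in control cells. Among p53 and its feedback regulators these were Trp53 (0.66), Mdm2 (1.27), Mdm4 (1.00), Ppm1d (0.61) and Ccng1 (0.35). Among genes of arrest and growth control they were Btg2 (3.15), Plk2 (2.07), Plk3 (1.14), Gadd45a (2.05), Gadd45g (4.20), Zmat3 (0.23) and Sesn1 (-1.37). The genes of cell death were Aen (0.58), Eda2r (1.66), Phlda3 (0.58) and Trp53inp1 (0.79), those of repair and nucleotide supply Ercc5 (0.89), Polk (0.66) and Rrm2b (1.43), and those of metabolism, secretion and the membrane Ak1 (-0.53), Pltp (2.23) and Dgka (1.71). Sesn1 and Ak1 are negative, the others positive. With 3 libraries a group, single libraries were not tested as outliers.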

How the results depend on the processing

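Of 3484 recomputed log2 fold changes of the 32 genes, 3371 kept their side of the threshold, 107 lost and 6 gained a call, and 0 called values changed sign. Against a 1.5-fold change, a stricter question, the calls over the p53 genes came to 0 lower with vehicle (7), 11 higher (20) and 1 lower (4) for IFNb in control cells, 13 higher under IFNb (24), and 12 higher (20) and 1 lower (2) in the interaction, with the reported counts in parentheses. The calls over all genes became 17 (753), 3306 (8388), 980 (6133), 3301 (8364) and 2592 (6855) for the genotypes with vehicle and with IFNb, the responses of control and of Adar-null cells and the interaction. The DESeq2 Wald test called 4 p53 genes lower with vehicle, 2 lower with IFNb in control cells and 324 genes of all with vehicle; the cause was not tested. Leaving out 1 library gave 5 to 7 p53 genes lower and 308 to 801 genes in all with vehicle (308 without control vehicle replicate 2, 393 and 463 without Adar-null vehicle replicates 1 and 2). For the response of control cells it gave 19 to 20 higher and 2 to 4 lower (2 without control vehicle replicate 2 or 3 or control IFNb replicate 1), for that of Adar-null cells 26 to 28 higher, under IFNb 23 to 24 higher and 3 to 4 lower, and in the interaction 19 to 21 higher; the 2 lower calls of the last and of the Adar-null response were made in each such fit.

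Replicate numbers are shared by the groups, but the deviations of same-numbered libraries correlated by only -0.0605 to 0.0613 over 18 pairs. For 0 of 12 libraries was the own number the best match in every other group at once. Within single groups it sometimes was, as for replicate 1 of control and Adar-null cells with vehicle (0.0315). Given these low values the numbers were not taken as pairs. With the replicate block 6 p53 genes were lower with vehicle (adjusted p of Rrm2b = 0.0501), the block changed no other call of a p53 gene, and 711, 8347, 6075, 8338 and 6816 genes were called in all. A fit of the compared groups alone is the same fit for the interaction. Genes to which DESeq2 gave no adjusted p have no value there.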

Other observations

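Some genes of the p53 pathway were at or near the limit of detection, and the choice to name them was made after their values were seen. Fas, the death receptor gene, had 0 counts in the other 3 groups and 17 counts over the Adar-null libraries with IFNb (0.947, 0.601 and 1.27 CPM), at least 5.92-fold higher than in control cells with IFNb against a floor of 3 counts over the group; the filter kept it out of the test. Pmaip1, the gene of the BH3 protein NOXA, had no count in any of the 12 libraries, which allows up to 0.157 to 0.173 CPM per group. Rprm, a p53 target of arrest, and the p53 relatives Trp63 and Trp73 had 0, 0 and 0 counts over all 12 libraries.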
